A study of Mus musculus with 7 samples.

Results

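The 9 genes described here are matrix metalloproteinases: Mmp2, Mmp3, Mmp7, Mmp9, Mmp10, Mmp11, Mmp12, Mmp13 and Mmp14. They were taken as a fixed list of names, chosen with earlier results of these data known. Every probe set that the platform annotation gives to 1 of these genes alone was used. This came to 13 probe sets for 9 of the 18193 genes measured. Levels are the authors' RMA values, on the log2 scale, from 7 Affymetrix mouse arrays of RNA from tumour cells sorted for the surface antigens CD34 and Epcam. The tumours were skin carcinomas (malignant, 4 arrays) and papillomas (benign, 3 arrays) raised in mice with the carcinogen DMBA and the tumour promoter TPA. Carcinoma arrays are numbered 1 to 3 and GFP, and papilloma arrays 1, 2 and GFP. What the tag GFP marks is not explained in the labels, so the arrays with and without it are called tagged and untagged. Each sample's description puts Nr2f2, the nuclear receptor in the title of the series, before the tumour type without a genotype, and no change of that gene was assumed. The labels name no strain or age, nor how many animals stand behind an array. The error values therefore rest on the spread between arrays and cannot be read as the spread between animals. Each SE also draws on the variances of all probe sets, as set out under the processing.

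Matrix metalloproteinases are zinc-dependent enzymes, made as inactive precursors, that cut collagens, other matrix proteins and many secreted or surface proteins. Most are secreted, whereas Mmp14 is anchored in the cell membrane, where it activates the precursor of Mmp2. Tissue inhibitors of metalloproteinases (Timps) block the active enzymes. In squamous tumours of the skin, metalloproteinases are made both by tumour cells and by fibroblasts, endothelial cells and infiltrating myeloid cells. A level in sorted RNA does not show which cells made it, and fewer cells of a type cannot be told apart from less RNA per cell.

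The arrays differed more with the tag than with the tumour type. In tagged and untagged arrays, the mean level of 10 endothelial markers was 10.90 to 11.06 and 5.07 to 5.64, and that of 11 fibroblast markers was 10.91 to 11.81 and 5.60 to 7.87. Both tagged arrays lay above all untagged ones for 10 of the 10 endothelial and 11 of the 11 fibroblast genes, and for 6 of 10 myeloid genes (list means 7.18 to 7.44 and 5.71 to 6.45). Of 4 neutrophil markers, 0 lay above in this way and 2 below. Over all probe sets, both tagged arrays lay above all untagged ones for 17.8% and below them for 20.1%. Of 10 keratinocyte markers, 7 were below all untagged arrays in both tagged arrays (list means 10.58 to 10.72 and 11.54 to 12.17). By limma 5 of the 10 were called lower and 0 higher. The size of the difference varied. Krt5 stayed bright on every array (12.91 to 12.98 and 13.01 to 13.73), while Cdh1 was at 8.76 to 8.86 and 10.78 to 11.61. Of the antigens used for sorting, Epcam was lower in tagged arrays (means of 8.94 and 11.39, limma adjusted p = 0.0186), and Cd34 averaged 11.69 and 9.89 (limma adjusted p = 0.0581). The 3' minus 5' signal of the Gapdh control probe sets, which is larger where labelled RNA is shorter, was 3.19 in both tagged arrays and -0.04 to 0.06 in untagged ones. The part of these differences in the results below was not tested.

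RefSeq promoter windows (assembly GRCm38.p6) were at hand for 7 of the 9 genes, and each spans 250 bases before to 50 bases after an annotated start. Mmp2 and Mmp9 had none there. Windows were searched on both strands for TGAGTCA (reverse complement TGACTCA), the site bound by AP-1 transcription factors, and for TATAAA (reverse complement TTTATA), the core of the TATA box. Both motifs occurred in at least 1 window of 5 of these 7 genes, Mmp3, Mmp7, Mmp10, Mmp12 and Mmp13, and neither occurred in the windows of Mmp11 and Mmp14. For comparison, TGAGTCA was in 5.2% and TATAAA in 13.6% of all 32851 windows of 300 bases. These shares are per window and for each motif alone, and the share of genes with both motifs was not counted. The 5 genes with both motifs lie in 1 family cluster on chromosome 9, with other metalloproteinase genes between them. The stretch from 130 bases before to 20 bases after the start (plus strand, 5′ to 3′) is shown for each, since the levels of 4 of them differed widely between arrays and those of Mmp7 did not. Capitals mark the AP-1 and TATA letters.
Mmp13, chr9:7272384-7272533: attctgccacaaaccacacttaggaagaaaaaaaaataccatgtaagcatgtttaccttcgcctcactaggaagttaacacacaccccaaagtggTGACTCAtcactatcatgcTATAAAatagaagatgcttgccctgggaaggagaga
Mmp12, chr9:7347244-7347393: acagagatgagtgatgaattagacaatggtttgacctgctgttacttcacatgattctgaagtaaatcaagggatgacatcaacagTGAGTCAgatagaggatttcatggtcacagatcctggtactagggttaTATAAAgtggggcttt
Mmp3, chr9:7445692-7445841: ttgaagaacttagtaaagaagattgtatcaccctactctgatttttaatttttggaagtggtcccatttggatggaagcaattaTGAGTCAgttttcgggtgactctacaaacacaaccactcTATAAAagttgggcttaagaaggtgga
Mmp10, chr9:7502212-7502361: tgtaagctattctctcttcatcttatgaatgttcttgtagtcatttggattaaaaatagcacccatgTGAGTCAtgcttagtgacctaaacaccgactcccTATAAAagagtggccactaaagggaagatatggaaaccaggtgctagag
Mmp7, chr9:7691960-7692109: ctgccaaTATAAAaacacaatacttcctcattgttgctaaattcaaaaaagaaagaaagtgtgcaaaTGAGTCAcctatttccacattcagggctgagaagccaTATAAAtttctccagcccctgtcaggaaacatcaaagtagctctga
The AP-1 letters began 35 bases before the start in Mmp13 (as TGACTCA), 46 in Mmp3, 63 in both Mmp10 and Mmp7, and 44 at the second annotated start of Mmp12. The TATA letters began 29 bases before the start in Mmp10, 123 and 26 in Mmp7, 16 in Mmp13 and 7 in Mmp3. At the second annotated start of Mmp12 they began 5 bases after it. The windows at the first annotated start of Mmp12 and the second of Mmp7 had neither motif. A match of letters describes the sequence only.

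**Figure D1:**
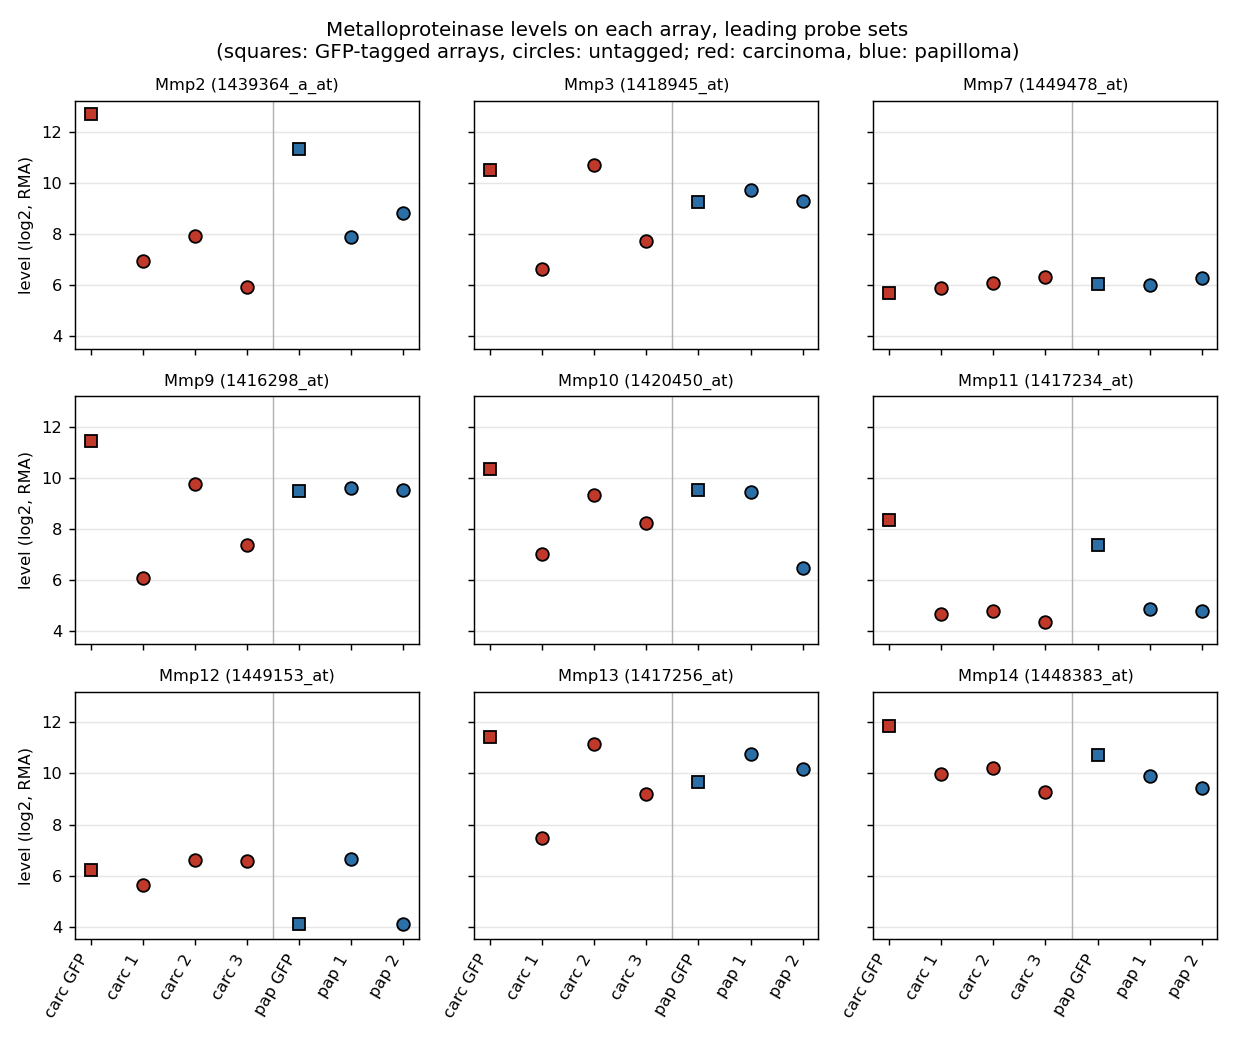
Level (log2, RMA) of the leading probe set of each metalloproteinase on the 7 arrays, with carcinoma (carc, red) left of papilloma (pap, blue), squares for GFP-tagged and circles for untagged arrays. For Mmp2, Mmp10, Mmp11 and Mmp14 both squares lie above every circle, at 12.68 and 11.31 for Mmp2 against 5.90 to 8.82. For Mmp3, Mmp9 and Mmp13 carcinoma 1 is the lowest array, and Mmp7 stays between 5.69 and 6.30. Levels of different probe sets are not comparable.

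The first question was whether metalloproteinase levels differ between malignant and benign tumours, since the title of the series names invasion. No member passed the test between carcinoma and papilloma: 0 of 13 probe sets were called by limma at an adjusted p of 0.05, where 0% of all 34945 probe sets were called (201 had an unadjusted p under 0.05, none of them of a member, and the smallest adjusted p was 1). The tag was not in this fit, so differences between tagged and untagged arrays entered its error. With the tag as a covariate, the SE for Mmp2 was 0.70 instead of 1.68. In that fit 553 probe sets had an unadjusted p under 0.05 and 0 were called. With few arrays and this spread, the absence of calls does not show that levels were alike. Carcinoma and papilloma arrays overlapped for all 13 member probe sets, whereas the groups did not overlap for 1.41% of all probe sets. On the leading probe sets, those with the highest mean, 3 of 9 genes had the higher mean in carcinoma and the median difference was -0.14, beside a median of -0.003 over all probe sets.

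Mmp12, the macrophage metalloelastase, which cuts elastin, had the largest difference of the 9. Its levels were 5.64, 6.61, 6.58 and 6.24 in carcinoma 1, 2, 3 and GFP, against 6.64, 4.09 and 4.10 in papilloma 1, 2 and GFP. Carcinoma arrays thus lay together, while papilloma was split, with 1 array above every carcinoma array and the other two under the lower quartile of all probe sets on their arrays (4.36 and 4.31). The difference was 1.32 log2 units (SE 0.66, limma adjusted p = 1), and the exact two-sided permutation p was 0.286, where 0.0571 is the smallest that 4 against 3 arrays allow. Leaving out 1 array at a time gave 0.90 to 2.17. The largest value came without papilloma 1 (SE 0.32, limma adjusted p = 1), the papilloma array above every carcinoma array. Without papilloma 2 the difference was 0.90 (SE 0.72), and without papilloma GFP it was 0.90 (SE 0.71).

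Among the gelatinases, which cut denatured collagen and basement membrane collagen, Mmp9 on its leading probe set 1416298_at had 6.09, 9.78, 7.38 and 11.46 in carcinoma 1, 2, 3 and GFP, against 9.60, 9.55 and 9.49 in papilloma 1, 2 and GFP. The papilloma arrays were nearly alike, and the carcinoma arrays spread on both sides of them. The 4 carcinoma arrays had a mean of 8.68 ± 2.41 (SD) and the 3 papilloma arrays one of 9.54 ± 0.06 (SD), a difference of -0.87 (SE 1.22). Without carcinoma GFP it was -1.80, and without carcinoma 1 it was -0.0017. The second probe set, 1448291_at, gave -0.84 (SE 1.35). Mmp2 on 1439364_a_at had a carcinoma mean of 8.36 ± 2.99 (SD over 4 arrays) and a papilloma mean of 9.34 ± 1.77 (SD over 3 arrays), a difference of -0.98 (SE 1.68), and 1416136_at gave -0.76 (SE 1.52). These differences were smaller than the spread within carcinoma, but that spread includes the difference between the tagged and the untagged arrays. In untagged arrays alone, Mmp2 on 1439364_a_at differed by -1.44 (SE 0.63) and Mmp9 on 1416298_at by -1.82 (SE 1.05). There the difference was larger than the carcinoma SD on both probe sets of Mmp2 and smaller on both of Mmp9. No probe set was called in that fit.

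The stromelysins Mmp3 and Mmp10 cut proteoglycans, fibronectin and laminin and can activate other metalloproteinase precursors. Mmp3 had 6.63, 10.69, 7.74 and 10.51 in carcinoma 1, 2, 3 and GFP, against 9.72, 9.30 and 9.24 in papilloma 1, 2 and GFP. The papilloma levels all lay inside the gap between the lower and the higher pair of carcinoma arrays. The difference was -0.53 (SE 1.03). Mmp10 had 7.04, 9.35, 8.24 and 10.36 in carcinoma 1, 2, 3 and GFP, against 9.45, 6.46 and 9.55 in papilloma 1, 2 and GFP, a difference of 0.26 (SE 1.03). Mmp13, the main interstitial collagenase of mice, had 7.46, 11.15, 9.19 and 11.43 in carcinoma 1, 2, 3 and GFP, against 10.78, 10.16 and 9.66 in papilloma 1, 2 and GFP, a difference of -0.39 (SE 0.97). For each of these 3 genes carcinoma held arrays on both sides of the papilloma mean, and for Mmp3 and Mmp13 its lowest array was also below every papilloma array.

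The remaining members did not pass either. Mmp14, the membrane-type activator of Mmp2, differed by 0.32 (SE 0.62) on 1448383_at, by 0.46 (SE 0.73) on 1416572_at and by 0.60 (SE 0.43) on 1440920_at. Mmp11, a stromelysin known from the stroma of carcinomas, differed by -0.14 (SE 1.13). Mmp7, matrilysin, a small metalloproteinase typical of glandular epithelia, had 5.88, 6.08, 6.30 and 5.69 in carcinoma 1, 2, 3 and GFP, against 5.98, 6.27 and 6.04 in papilloma 1, 2 and GFP, and differed by -0.11 (SE 0.20). Its levels spanned 0.62 log2 units over all 7 arrays. All of these had a limma adjusted p of 1.

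**Figure D2:**
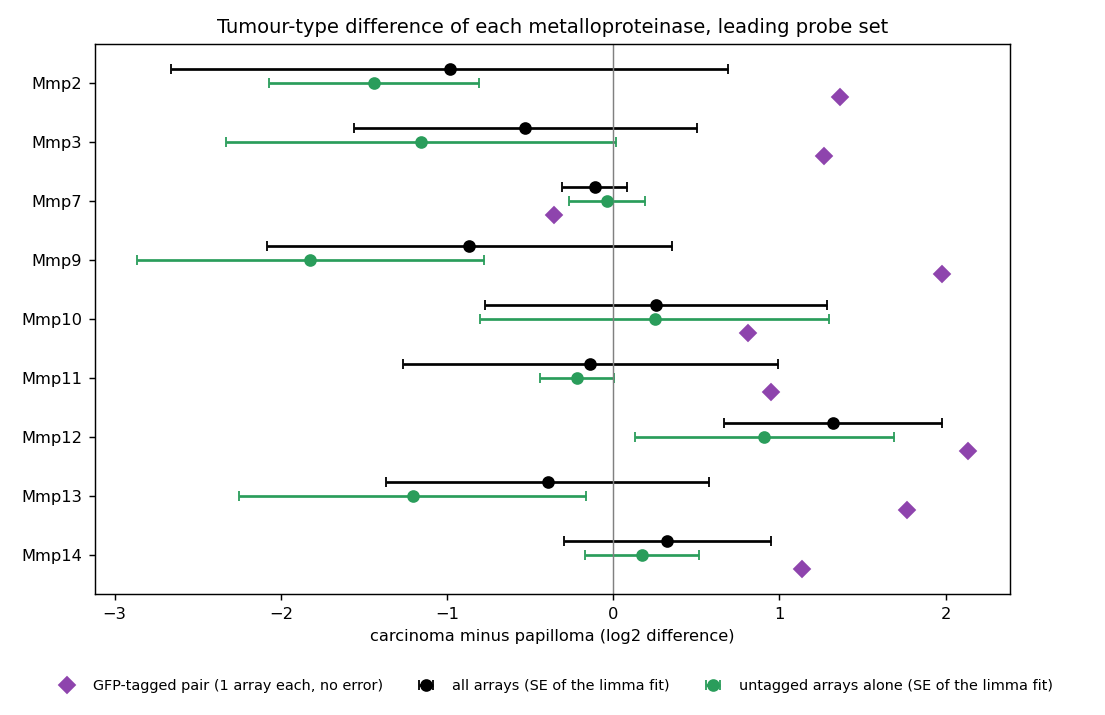
Carcinoma minus papilloma (log2 difference) for the leading probe set of each metalloproteinase: all arrays (black) and untagged arrays alone (green), with the SE of the limma fit as bars, and the tagged pair (purple, 1 array each). For Mmp9 the values are -0.87 over all arrays, -1.82 in untagged arrays and 1.98 in the tagged pair.

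The difference between the tumour types took opposite signs in untagged and tagged arrays for several members. In the tagged pair, carcinoma lay above papilloma for 8 of 9 leading probe sets, by a median of 1.27 log2 units, where this held for 55.65% of all probe sets with a median of 0.04. Among untagged arrays the median difference of the 9 was -0.22, beside -0.02 over all probe sets. Mmp9 differed by 1.98 in the tagged pair and by -1.82 (SE 1.05) in untagged arrays, Mmp13 by 1.77 and -1.21 (SE 1.04), Mmp2 by 1.36 and -1.44 (SE 0.63), and Mmp3 by 1.27 and -1.16 (SE 1.17). Mmp12 was on the same side in both, at 2.14 in the tagged pair and 0.91 (SE 0.78) in untagged arrays, as was Mmp10, at 0.81 and 0.25 (SE 1.05).

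These contrasts were tested by an interaction term, the tumour-type difference in tagged arrays minus that in untagged arrays. Of the 13 member probe sets 0 passed, where 0% of all probe sets did (948 had an unadjusted p under 0.05, among them Mmp11 and 1416136_at of Mmp2). The term was 3.80 (SE 1.93) for Mmp9, 2.97 (SE 1.93) for Mmp13, 2.80 (SE 1.17) for Mmp2 and 1.17 (SE 0.41) for Mmp11 (limma adjusted p = 1 for each). Of the 9 genes, 8 had a positive term, with a median of 1.23 beside 0.06 over all probe sets. The tagged side of this comparison is 1 array for each tumour type.

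With tumour type as a covariate, Mmp2, Mmp11 and Mmp14 were higher in tagged than in untagged arrays and passed the test. In probe sets, 4 of 13 were called higher and 0 lower, where 9.15% of all probe sets were called higher and 6.85% lower. Both tagged arrays lay above all 5 untagged arrays for 6 of the 13 and below them for 1, where 17.8% and 20.1% of all probe sets did so. The median difference of the 9 leading probe sets was 1.57, beside -0.07 over all probe sets. The other 6 genes did not pass.

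Mmp2 had 12.68 and 11.31 in carcinoma GFP and papilloma GFP, against 6.94, 7.91 and 5.90 in carcinoma 1 to 3 and 7.89 and 8.82 in papilloma 1 and 2. The groups did not overlap, and within both of them the arrays were spread by over 1 log2 unit. The difference was 4.44 (SE 0.76, limma adjusted p = 0.0109), and 4.02 (SE 0.70, limma adjusted p = 0.0112) on 1416136_at. An exact two-sided permutation test gave 0.0952, the smallest that 2 against 5 arrays allow. Without carcinoma GFP the difference was 2.96 and the call was lost (limma adjusted p = 0.154).

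Mmp11 had 8.35 and 7.39 in carcinoma GFP and papilloma GFP, against 4.69, 4.81 and 4.35 in carcinoma 1 to 3 and 4.88 and 4.80 in papilloma 1 and 2. The untagged arrays lay within 0.52 log2 units of each other and under the array medians of 5.38 to 5.51, and both tagged arrays were far above them. The difference was 3.18 (SE 0.29, limma adjusted p = 0.00099), and it was called without any 1 array, at adjusted p-values of 0.00211 to 0.0148.

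Mmp14 on its leading probe set 1448383_at had 11.86 and 10.72 in carcinoma GFP and papilloma GFP, against 10.00, 10.22 and 9.29 in carcinoma 1 to 3 and 9.89 and 9.43 in papilloma 1 and 2. The difference was 1.57 (SE 0.34, limma adjusted p = 0.0261). Its call was lost without carcinoma GFP (1.06, limma adjusted p = 0.326), without papilloma GFP (2.02, limma adjusted p = 0.0611) and without carcinoma 1 (1.58, limma adjusted p = 0.0546). The 3 probe sets of Mmp14 disagreed: 1416572_at gave 1.41 (SE 0.62, limma adjusted p = 0.189) with overlapping groups, and 1440920_at gave -0.98 (SE 0.29, limma adjusted p = 0.0671), with 7.56 and 6.97 in the tagged arrays, against 7.58 to 8.80 in the untagged ones. Averaging the 3 gave 0.67 (limma adjusted p = 0.307).

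The fibroblast and endothelial marker levels given above moved with the tag in the same direction as Mmp2, Mmp11 and Mmp14, as did the 3' minus 5' signal of the controls, and their part was not tested. Among untagged arrays, Mmp2 and the fibroblast list had the same lowest array, carcinoma 3 (5.90 for Mmp2 and a list mean of 5.60), and the same highest array, papilloma 2 (8.82 and 7.87). Mmp11 and Mmp14 were also lowest in carcinoma 3 (4.35 and 9.29), but Mmp11 was highest in papilloma 1 (4.88) and Mmp14 in carcinoma 2 (10.22).

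**Figure D3:**
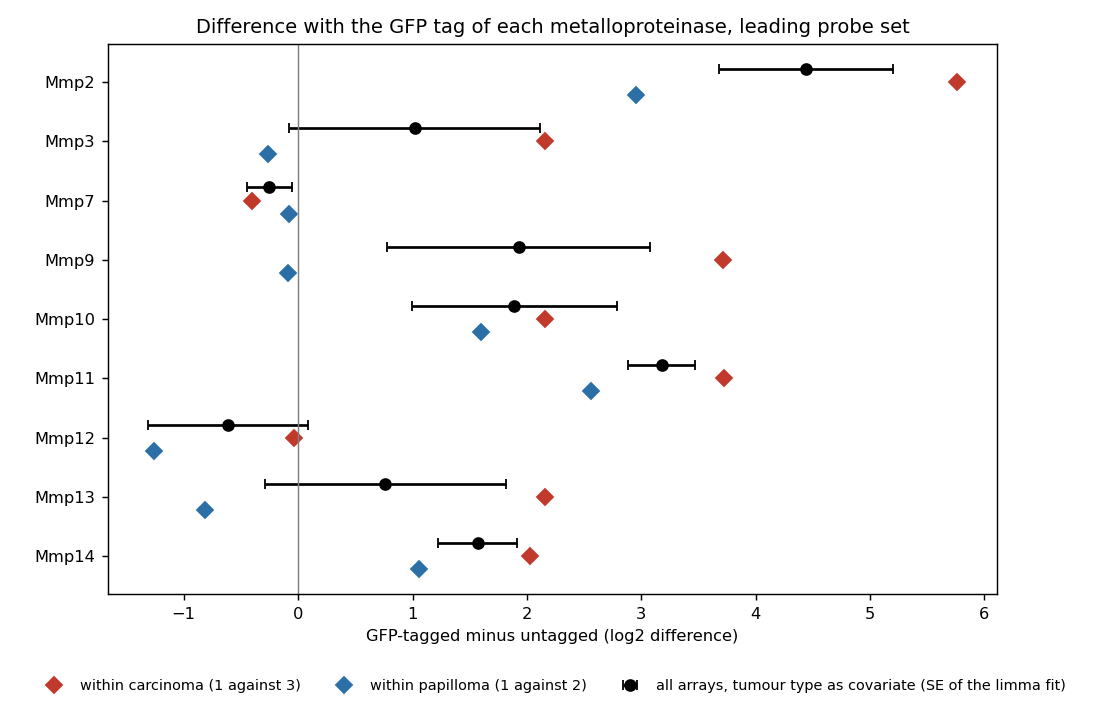
Tagged minus untagged (log2 difference) for the leading probe set of each metalloproteinase: all arrays with tumour type as covariate (black, SE of the limma fit as bars), within carcinoma (red, 1 array against 3) and within papilloma (blue, 1 against 2). Mmp2, Mmp11 and Mmp14 lie right of 0 in both tumour types, while Mmp3, Mmp9 and Mmp13 lie right of 0 within carcinoma only, at 2.16, 3.72 and 2.16 against -0.26, -0.09 and -0.81 within papilloma.

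For the members that did not pass, the difference with the tag was 1.93 (SE 1.15, limma adjusted p = 0.33) for Mmp9, 1.89 (SE 0.89, limma adjusted p = 0.221) for Mmp10, 1.02 (SE 1.10, limma adjusted p = 0.6) for Mmp3, 0.76 (SE 1.05, limma adjusted p = 0.692) for Mmp13, -0.25 (SE 0.20, limma adjusted p = 0.461) for Mmp7 and -0.61 (SE 0.70, limma adjusted p = 0.623) for Mmp12. The second probe set of Mmp9, 1448291_at, gave 2.43 (SE 1.19, limma adjusted p = 0.237). For Mmp10, and for Mmp9 on this second probe set by a margin of under 0.01 log2 units, both tagged arrays nevertheless lay above every untagged one. Mmp13 differed by 2.16 within carcinoma and by -0.81 within papilloma, 1 tagged array in each.

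The 5 untagged arrays differed widely among themselves in 6 of the 9 genes. A range over 2 log2 units was found for 8 of 13 member probe sets, where 6.24% of all probe sets had one, and the median range of the 13 was 2.54, beside 0.73 over all. The values over all probe sets include dim ones, and none were taken among probe sets of like level. The range was 4.07 for Mmp3, 3.70 for Mmp9, 3.70 for Mmp13, 2.99 for Mmp10, 2.92 for Mmp2 and 2.54 for Mmp12. It was 0.94 for Mmp14, 0.52 for Mmp11 and 0.42 for Mmp7. Untagged carcinoma and papilloma arrays did not overlap for 1 of the 13 probe sets, 1416136_at of Mmp2, at 6.62, 7.53 and 5.74 against 7.57 and 8.12, where 12.0% of all probe sets did not overlap.

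Mmp3, Mmp9 and Mmp13 shared 1 order at the ends of the untagged arrays: carcinoma 1 was the lowest and carcinoma 2 the highest for all 3 genes, with carcinoma 3 next to lowest. After each was centred on its own mean over the 5 arrays, Mmp3 and Mmp13 differed by a root mean square of 0.32 log2 units, Mmp9 and Mmp13 by 0.39, and Mmp3 and Mmp9 by 0.39. Mmp10 and Mmp12 differed by 0.57, with papilloma 2 lowest and papilloma 1 highest for both, whereas Mmp10 and Mmp3 differed by 1.25. These are descriptions over 5 arrays. Between same-numbered arrays, carcinoma 1 minus papilloma 1 was -3.10 for Mmp3, -3.51 for Mmp9, -3.32 for Mmp13 and -2.41 for Mmp10, whereas carcinoma 2 minus papilloma 2 was 1.40, 0.24, 0.99 and 2.88 for the same genes. In carcinoma 1 the keratinocyte list mean was 12.03, within the untagged range, and the myeloid mean, 6.45, was the highest and the endothelial mean, 5.07, the lowest of the untagged arrays. Their part was not tested.

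The family cluster on chromosome 9 holds 10 metalloproteinase genes in the RefSeq order Mmp13, Mmp12, Mmp1b, Mmp3, Mmp1a, Mmp10, Mmp8, Mmp27, Mmp20 and Mmp7, of which all but Mmp27 had a probe set. The neighbours outside the 9 listed genes were chosen for description after their values were seen. The first 6 genes in this order each had a range over 2 log2 units in the untagged arrays, and the 3 measured genes at the other end, Mmp8, Mmp20 and Mmp7, had ranges of 0.72, 0.35 and 0.42. Mmp1a and Mmp1b, the mouse relatives of human interstitial collagenase, were highest in carcinoma 2 (6.18 and 6.54) and next highest in papilloma 1 (4.52 and 5.95), and lay between 3.39 and 4.17 on the other 5 arrays. Both also held the AP-1 and TATA letters in their windows. These 2 genes are close copies, and their probe sets may share signal. Whether the motifs go with the range was not tested. Of the 3 genes with small ranges, Mmp7 held both motifs, and Mmp8 and Mmp20 held the TATA letters alone. Mmp2 and Mmp9, which also ranged widely, had no window to search.

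**Figure D4:**
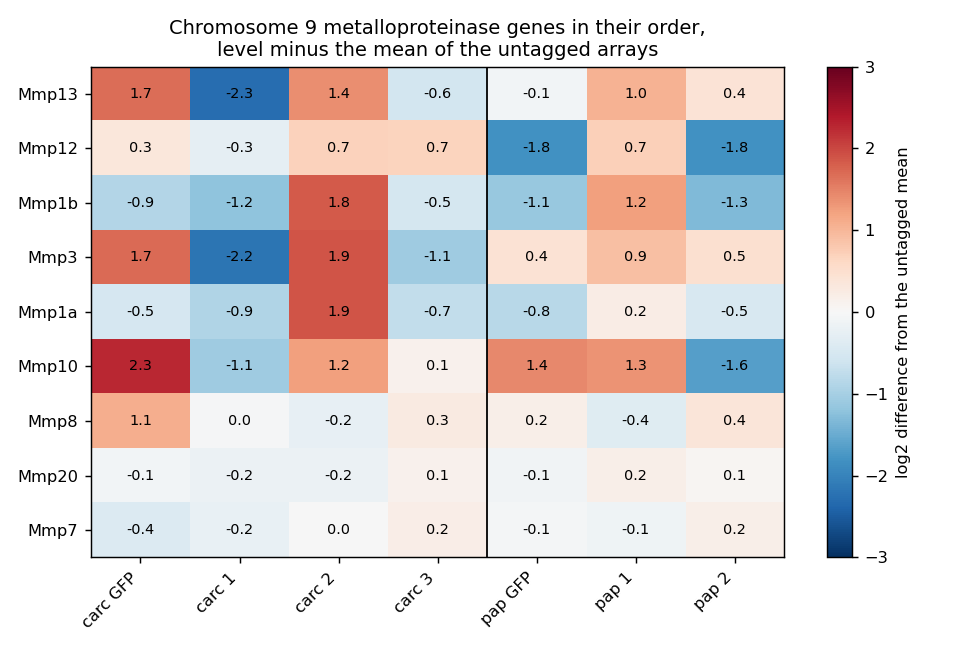
Level of the 9 measured metalloproteinase genes of the chromosome 9 cluster, in RefSeq order from top to bottom, on each array (carc, carcinoma; pap, papilloma), minus the mean of the 5 untagged arrays (log2 difference, colour and number). Mmp3 and Mmp13 are low in carcinoma 1, Mmp12 is low in papilloma GFP and papilloma 2, and Mmp8, Mmp20 and Mmp7 vary little among untagged arrays.

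For the 8 genes with a range of at least 2 log2 units over all 7 arrays, the genes of most like pattern were found by the root mean square difference of centred levels. For Mmp2 these were Lum (0.30), a proteoglycan of collagen fibrils, Thy1 (0.33), a surface protein of fibroblasts among other cells, and Col1a1 (0.35), a chain of type I collagen. All 3 are on the fibroblast marker list. For Mmp11 they were Hoxd10 (0.09), a homeobox factor, Aebp1 (0.10), a collagen-binding secreted protein, and Col11a1 (0.12), a fibrillar collagen chain. For Mmp3 the nearest gene was Mmp13 (0.33), and for Mmp13 it was Mmp3. For Mmp9 the nearest was Hpgd (0.33), which inactivates prostaglandins and was also second for Mmp3 (0.46), followed by Papss2 (0.49), a sulfate-donor synthase. For Mmp10 the nearest was Ehd4 (0.42), an endocytic ATPase, for Mmp12 Smg1 (0.44), a kinase of RNA surveillance, and for Mmp14 Ulk2 (0.14), an autophagy kinase.

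**Figure D5:**
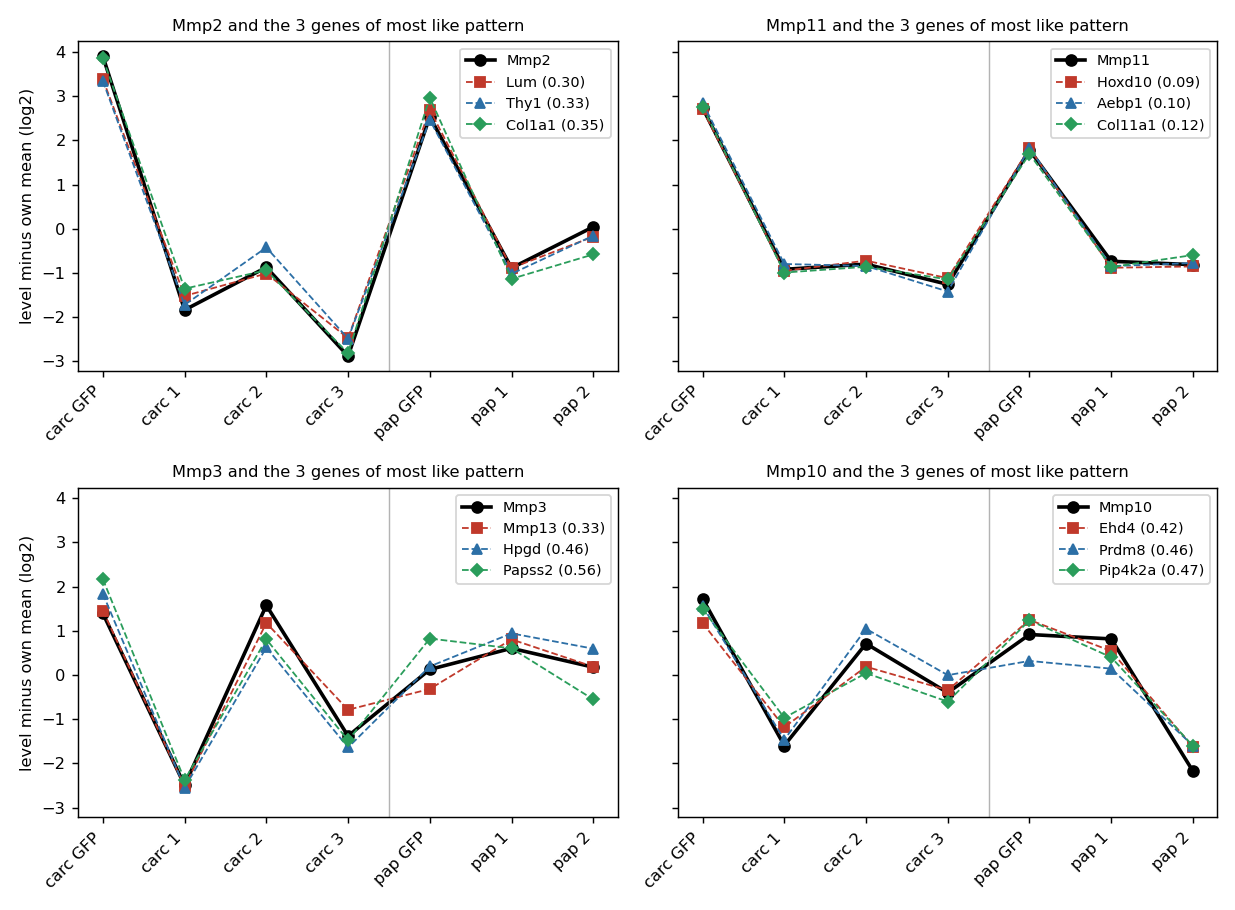
Level minus own mean over the 7 arrays (log2) for Mmp2, Mmp11, Mmp3 and Mmp10 (black) and the 3 genes of most like pattern for each, with the root mean square difference in brackets (carc, carcinoma; pap, papilloma; lines only join the points of a gene). Lum, Thy1 and Col1a1 follow Mmp2 with 0.30 to 0.35, and Mmp13 follows Mmp3 with 0.33, including the low level in carcinoma 1.

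Other genes of the metalloproteinase system were examined as lists on their leading probe sets. Between carcinoma and papilloma, none of the 9 other metalloproteinases, 6 inhibitors, 9 activators and inducers, 11 transcription factors and 8 substrates measured passed the test (limma adjusted p = 1 for each gene). The inhibitor with the largest difference was Timp3, a matrix-bound inhibitor, at -1.06 (SE 1.11). Lcn2, a lipocalin that binds Mmp9, was the activator or inducer with the largest, at -2.01 (SE 0.98). Its levels were 5.15, 6.26, 4.29 and 7.24 in carcinoma 1, 2, 3 and GFP, against 6.79, 9.76 and 6.68 in papilloma 1, 2 and GFP, so that papilloma 2 stood above the rest. Plau, the urokinase that starts plasmin formation, gave 1.03 (SE 1.16). Among transcription factors the largest was Fosl1, an AP-1 subunit, at 0.56 (SE 0.95), and among substrates Col1a1, at -0.73 (SE 1.72).

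With the tag, the inhibitors Reck, a membrane-anchored inhibitor, and Timp2, which also takes part in Mmp2 activation by Mmp14, rose by 4.08 (SE 0.34, limma adjusted p = 0.000693) and 2.55 (SE 0.50, limma adjusted p = 0.0178), 2 of 6 inhibitors. Reck had 9.12 and 7.75 in carcinoma GFP and papilloma GFP, against 4.10 to 4.55 in untagged arrays. Timp3 gave 2.61 (SE 0.73, limma adjusted p = 0.0568). Of 9 other metalloproteinases 2 rose: Mmp23 by 2.76 (SE 0.36, limma adjusted p = 0.00406) and the membrane-type Mmp16 by 1.77 (SE 0.29, limma adjusted p = 0.00931). Of 8 substrates 6 rose, led by the basement membrane collagen chains Col4a1, by 6.42 (SE 0.93, limma adjusted p = 0.00575), and Col4a2, by 5.95 (SE 0.94, limma adjusted p = 0.00801). Col1a1, Col1a2 and Col3a1 on this list are also fibroblast markers.

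Other parts of the system were lower in tagged arrays. Of 9 activators and inducers 2 fell and 0 rose. Plau gave -3.17 (SE 0.41, limma adjusted p = 0.00402) and Bsg, a surface inducer of metalloproteinases, gave -2.41 (SE 0.35, limma adjusted p = 0.00591). Plau had 5.59 and 4.80 in carcinoma GFP and papilloma GFP, against 7.27 to 9.24 in untagged arrays, with no overlap. Of 11 AP-1 and Ets transcription factors 5 fell, Fosb, Fosl1, Jun, Etv4 and Etv5, and 2 rose, Fosl2 and Ets1. Fosl1 gave -2.51 (SE 0.44, limma adjusted p = 0.0114), Etv5 gave -2.13 (SE 0.28, limma adjusted p = 0.0041) and Ets1 gave 2.85 (SE 0.75, limma adjusted p = 0.0477). Beside these counts on leading probe sets stand the 9.15% of all probe sets called higher and 6.85% called lower. In a fit with 1 probe set per gene these shares were 11.87% and 7.93%.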

How the data were processed

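Biotin-labelled RNA of sorted tumour cells was hybridised to Affymetrix mouse PM strip arrays, per the labels' protocols. The authors normalized the deposited values with RMA, per the labels' protocols, and RMA and affy are listed in the submitters' processing notes. The log2 scale was read from the deposited values (2.72 to 14.51), and no label says which arrays were normalized together or with which chip definition. Of 45101 probe sets, 64 controls, 932 with several symbols and 9160 not listed in the platform annotation of 2016 were left out, and 34945 with 1 symbol were tested, dim ones included. Of these, 34741 matched the RefSeq table of GRCm38.p6.

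limma 3.58.1 in R 4.3.3 (lmFit, eBayes) was fitted across all these probe sets, with Benjamini-Hochberg adjustment over all of them and a threshold of 0.05. Each SE is the moderated SE, in which eBayes draws a probe set's variance toward a value estimated over all probe sets. For probe sets of wide spread it is smaller than the SE from their own levels alone. The SDs are plain SDs of the levels. Carcinoma against papilloma had no covariate, tagged against untagged had tumour type as a covariate, and the interaction term compared the tumour-type differences. Both main comparisons use the same 7 arrays. Single genes were also tested by exact permutation of the arrays (35 and 21 regroupings, two-sided). The procedure was tested on simulated data. A gene's leading probe set has the highest mean over the arrays. Named genes were all members, at most 3 per list with the largest difference, and the 3 genes of most like pattern. For the lists not every such gene is printed. Lcn2 as a single profile, the called transcription factors and the chromosome 9 neighbours go beyond this rule. The members and lists were chosen with earlier results of these data known. Measured members of the lists were 9 of 14 other metalloproteinases, 6 of 6 inhibitors, 9 of 9 activators, 11 of 12 transcription factors and 8 of 9 substrates. Of 4 measured neutrophil markers, both tagged arrays lay below the untagged arrays in 2 and above in 0. Plots used matplotlib 3.10.9 (Python 3.11.15).

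The labels 1, 2 and GFP occur in both tumour types. Deviations from the group means, across probe sets, correlated at 0.413, 0.173 and 0.82 between same-labelled arrays, all above 0.1, so a fit with the label as a replicate block was run. Differently labelled arrays reached 0.697 (carcinoma 2 with papilloma 1), and without the tagged arrays the same-numbered pairs gave 0.108 and -0.334. Alternatives were other scalings, filters, probe set summaries, array weights, covariates and leaving out each array.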

Additional observations from a re-analysis of the deposited data

Results flagged for a closer look

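1 result stood apart from its group by Dixon's test, which was applied to 26 groups (the 4 carcinoma and the 5 untagged arrays for each of 13 probe sets) and marks about 1 in 20 groups by chance. Mmp11 on 1417234_at was 8.35 in carcinoma GFP, against 4.35 to 4.81 in carcinoma 1 to 3, a gap of 0.886 of the group's range where 0.829 is the limit for 4 arrays. That group joins 1 tagged with 3 untagged arrays, so the flag repeats the difference with the tag given above for Mmp11. Papilloma, with 3 arrays, was not tested, and no difference between tumour types was found by test to differ with the tag.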

How the results depend on the processing

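Of the differences between carcinoma and papilloma for the 9 genes, 13 recomputed values changed sign, 140 did not, and none was called under any setting. Array weights turned Mmp10 to -0.20. The GFP tag as a covariate turned Mmp11 to 0.13, and so did the replicate block, at 0.26, which left the number of called probe sets at 0 and changed no call. Leaving out 1 array gave -0.76 to 0.83 for Mmp10, -1.07 to 0.71 for Mmp11, -1.13 to 0.23 for Mmp3, -0.94 to 0.39 for Mmp13, -0.18 to 0.68 for Mmp14, -1.80 to -0.0017 for Mmp9 and -2.43 to 0.00025 for Mmp2. With the tag, probe sets called were 5591 over all arrays, 3601 with 1 probe set per gene, 3231 with gene means (both test fewer features), 10889 with array weights, 2203 in carcinoma arrays alone, 0 in papilloma arrays alone (4671 at an unadjusted p under 0.05) and 1300 to 6092 without 1 array. The differences of Mmp3, Mmp9 and Mmp13 turned to -0.26, -0.086 and -0.81 in papilloma arrays alone (the second probe set of Mmp9 gave 0.61 there), and leaving out 1 array gave -0.26 to 2.16, -0.086 to 3.72 and -0.81 to 2.16. In papilloma arrays alone 0 of 9 genes were called, and in carcinoma arrays alone Mmp2 and Mmp11 were. The interaction gave 0 calls, 11 with a trended and robust prior, 0 of them members, and leaving out 1 array gave -0.93 to 2.06 for Mmp10 and -0.044 to 2.50 for Mmp12. Where a group kept 1 array, it was assumed to vary like the others, and the interaction could not be fitted without a tagged array. RMA background correction could not be varied. Without detection calls, it is not known whether Mmp7, Mmp11 in untagged arrays and the low levels of Mmp12 stand above background. The cause of these shifts was not tested.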
